A study of Mus musculus with 8 samples.

Results

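The microRNAs described here are those of the Dlk1-Dio3 imprinted cluster on mouse chromosome 12. They were taken from a small RNA table by name, as every entry equal to 1 of 36 miRNA stems of the locus or starting with such a stem. The rule found 27 of the 1234 entries of the table, and they came from 21 of the 36 stems. The other 15 stems (miR-299a, miR-329, miR-337, miR-370, miR-376a, miR-376c, miR-377, miR-380, miR-412, miR-431, miR-540, miR-543, miR-665, miR-667 and miR-770) matched no entry and were not analysed here. The stems with the most expected counts over all libraries were mmu-miR-369 (24631 counts), mmu-miR-127 (10807), mmu-miR-494 (4278) and mmu-miR-410 (1911); the prefix mmu, for mouse, is left out below. Of the 27 entries, 9 were 5p arms and 18 were 3p arms.

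In this imprinted region the noncoding RNAs Meg3, Rian and Mirg and the miRNAs are expressed from the maternal chromosome, while the protein-coding genes Dlk1, Rtl1 and Dio3 are expressed from the paternal one. A first group of miRNAs lies on the strand opposite to Rtl1, a retrotransposon-derived gene needed in placenta, and these miRNAs are fully complementary to its transcript and direct its cleavage. A second, larger group is the array that begins with miR-379 and ends with miR-410. The miRNAs of the locus are abundant in embryo, placenta and brain, and mice that lack the miR-379/miR-410 array are impaired in the metabolic adaptation of the newborn liver.

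The libraries were made from 1 µg of total RNA of flow-sorted Kupffer cells, which are macrophages that reside in the liver, and all donors were male mice. There were 4 libraries from Trem2-/- mice (KO), numbered 40, 46, 88 and 90 in their titles, and 4 from wild-type littermates (WT), numbered 35, 37, 80 and 82. Every mouse, KO or WT, was fed a high-fat diet for 8 weeks from the age of 8 weeks, and no library came from a mouse on another diet. Trem2 encodes a lipid-sensing receptor of macrophages; its own transcript is not measured by small RNA sequencing, so the deletion could not be checked in these libraries. The numbers are taken here as animal numbers; the labels do not say more about how separate the samples were, and p-values measure the spread between these 8 libraries.

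Total expected counts ranged from 2129942 to 9443992 per library, and 33.3% of all values in the table were 0. Levels are CPM (counts per 1000000 counts of the library) after scaling by edgeR's TMM factors. Very low values were rarely listed (124 whole values of 1 to 4 against 401 values of exactly 5), so a 0 means only that the entry was listed at 0. The macrophage list (miR-142a, miR-223, miR-511, miR-146a, miR-155 and miR-21a) summed to between 222744 and 539984 CPM in each library, the sum being lowest in WT 82 and next lowest in KO 88. Most of each sum was miR-21a-5p. The miR-142a-5p and miR-223-3p entries, among others of the list, were not at their lowest in WT 82 or KO 88. By contrast, miR-142a-3p (1401 CPM in KO 88 and 1467 CPM in WT 82) and miR-511-3p (422 and 396 CPM) were lowest in these libraries. miR-146a-5p was lowest in WT 82, at 41081 CPM. Hepatocyte markers summed to 139366 CPM in WT 37 and to 9132 to 41051 CPM in the other 7 libraries.

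The sequences of the members with the strongest library patterns are shown first, each 5′ to 3′ as in the deposited table but with U for T, and with the seed (bases 2 to 8) in capitals. The first set is from the Rtl1 side, where levels were highest in library WT 82.
miR-433-3p: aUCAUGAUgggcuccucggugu
miR-127-3p: uCGGAUCCgucugagcuugg
miR-434-5p: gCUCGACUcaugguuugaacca
miR-434-3p: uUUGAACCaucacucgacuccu
miR-136-3p: aUCAUCGUcucaaaugagucu

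The second set is from the array and holds its most abundant members and those that passed a test below.
miR-323-3p: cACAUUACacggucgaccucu
miR-494-3p: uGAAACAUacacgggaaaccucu
miR-495-3p: aAACAAACauggugcacuucu
miR-369-3p: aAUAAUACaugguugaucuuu
miR-410-3p: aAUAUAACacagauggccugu

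The third set is from the array members that were far above the rest in WT 82.
miR-381-3p: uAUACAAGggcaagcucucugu
miR-300-3p: uAUGCAAGggcaagcucucu
miR-541-5p: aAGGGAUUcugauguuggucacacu

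All 27 members had different seeds, so no group of members shared one, and their lengths ran from 20 to 25 bases. Of the 27 sequences, 26 were contained exactly in 1 of the 57 hairpins that RefSeq (GRCm38.p6) places at the locus, and none was contained in a hairpin elsewhere in the mouse table. No member shared its sequence with another entry. Against the RefSeq mature form, 12 members ended at another 3′ base. In 2 members the 5′ start, and with it the seed, was shifted. The deposited miR-382-3p began 2 bases upstream, and the deposited miR-409-3p began 1 base downstream, of the RefSeq form, as the pairs below show.
miR-382-3p deposited: aAUCAUUCacggacaacacuuu
miR-382-3p RefSeq: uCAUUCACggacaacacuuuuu
miR-409-3p deposited: aAUGUUGCucggugaaccccu
miR-409-3p RefSeq: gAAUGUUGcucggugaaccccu

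The remaining sequence that matched no hairpin exactly was the only entry for miR-376b-3p. It carried the substitution A6G, counted from the 5′ end of the mature RefSeq form, which lies in the seed. Adenosine-to-inosine editing of miR-376 precursors, read as an A-to-G change, is known from mouse and human tissue; a table of entries does not tell editing from a base error. An unsubstituted miR-376b-3p was not analysed here.
miR-376b-3p deposited: aUCAUGGAggaacauccacuu
miR-376b-3p RefSeq: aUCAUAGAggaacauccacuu

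In RefSeq coordinates (GRCm38.p6, plus strand; the sources used here name no build for the deposited table) the 7 members of the Rtl1 side ran from miR-493-5p at chr12:109580243-109580261 to miR-136-3p at chr12:109595366-109595387. Of these, 6 lay within an Rtl1 exon on the opposite strand in GENCODE. GENCODE genes of small RNA types (miRNA, snoRNA and misc_RNA) were left out of this search. miR-493-5p overlapped no GENCODE gene of another type but lay within the span of Rtl1 in RefSeq. The other 20 members ran from miR-379-5p at chr12:109709065-109709085 to miR-410-3p at chr12:109743764-109743784. Of the array members, 6 lay in an exon of Mirg on the same strand and 4 in an intron of Mirg. The other 10 overlapped no GENCODE gene outside the small RNA types. Dlk1 (chr12:109452485-109463336) and Dio3 (chr12:110279230-110281097) bound the locus on either side.

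The summed level of the 27 members stood out in KO 88 and, less so, in WT 82. It was 1224, 1188, 3326 and 1181 CPM in KO 40, 46, 88 and 90, against 1359, 1550.0, 978 and 2427 CPM in WT 35, 37, 80 and 82. Group means were 1729.7 ± 1064 CPM in KO and 1579 ± 613 CPM in WT (SD, n = 4 each), a log2 ratio of 0.13. Each genotype thus held 1 library well above its other 3, and the groups overlapped. Without KO 88 the log2 ratio was -0.40, without WT 82 it was 0.42, and without both it was -0.11. In a bulk sample, fewer cells of a type and less RNA per cell cannot be told apart. As a share of all counts in a library, the members made up 0.397% in KO 88 (95% Wilson interval 0.390 to 0.405%), 0.303% in WT 82 (0.298 to 0.308%) and 0.0842 to 0.138% in the other 6 libraries; these intervals cover counting error only.

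**Figure D1:**
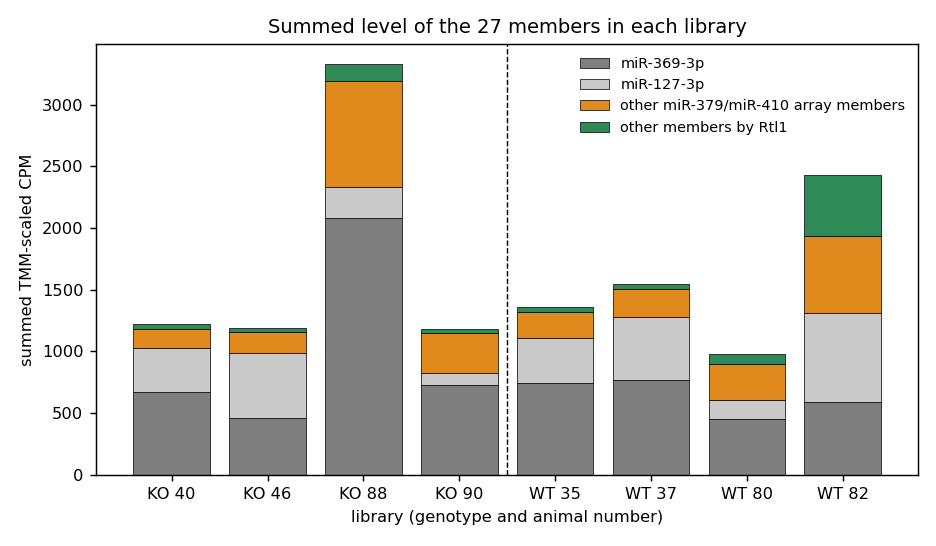
Summed level of the 27 members in each library (y axis, TMM-scaled CPM; x axis, library), with KO libraries left of WT libraries and each bar divided into miR-369-3p, miR-127-3p, the other array members and the other members by Rtl1. KO 88 reaches 3326 CPM and WT 82 reaches 2427 CPM, and the other 6 libraries lie between 978 and 1550.0 CPM.

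A pair of members supplied most of this sum. Over the 8 libraries, miR-369-3p held 47.8% of the members' counts and miR-127-3p held 20.8%. Their shares differed by library: in KO 88, miR-369-3p held 62.6% and miR-127-3p 7.62%, whereas in WT 82 they held 24.3% and 29.7%. Without these 2 the other members summed to 197, 203, 992 and 355 CPM in KO 40, 46, 88 and 90, against 252, 275, 370.0 and 1116 CPM in WT 35, 37, 80 and 82. The same 2 libraries therefore stood highest without the 2 dominant miRNAs.

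Members were high together in those libraries, not each in a library of its own. After the filter on low counts, 19 members were tested and 8 were not (miR-493-5p, miR-127-5p, both arms of miR-434, miR-379-3p, both arms of miR-134 and miR-154-3p). All 19 had their highest level in KO 88 or WT 82, 9 in KO 88 and 10 in WT 82. Of all 627 tested entries, 14.0% were highest in KO 88 and 17.5% in WT 82, together 31.6%. The others were highest in KO 40 (7.81%), KO 46 (12.6%), KO 90 (9.09%), WT 35 (5.1%), WT 37 (17.7%) or WT 80 (16.1%), where no tested member was. For 12 of the 19 members these libraries were the 2 highest, which was so for 6.06% of all entries. Relative to each member's own mean log2 level, the median over the members was 1.45 higher in KO 88 and 1.73 higher in WT 82, while over all entries it was 0.01 and 0.08. Among the remaining 6 libraries no such concentration was seen: members were highest in KO 40 once, KO 46 in 2 cases, KO 90 in 5, WT 35 in 3, WT 37 in 4 and WT 80 in 4. Over all entries these shares were 8.77, 17.1, 18.8, 8.45, 23.4 and 23.4%, in the same order. KO 88 and WT 82 were singled out after these values were seen.

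**Figure D2:**
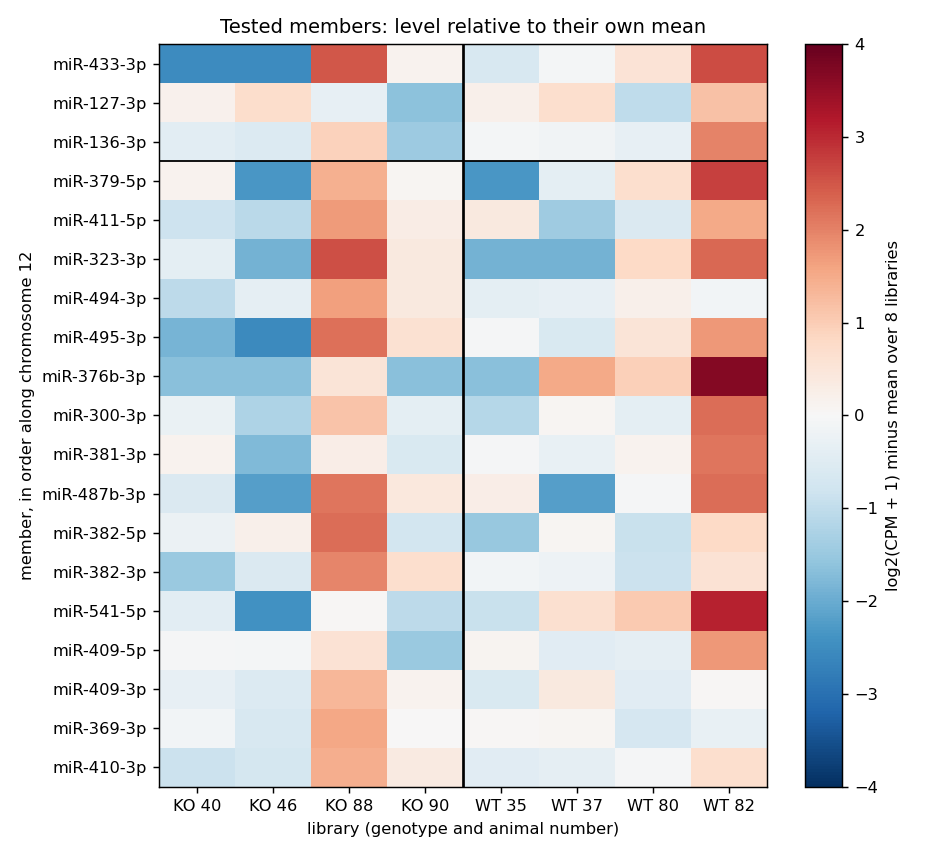
Level of the 19 tested members (rows, in order along chromosome 12) in the 8 libraries (columns, KO left of WT), as log2(TMM-scaled CPM + 1) minus the member's mean over the libraries. The KO 88 column is above the mean for 18 of the 19 members and the WT 82 column for 17.

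**Figure D3:**
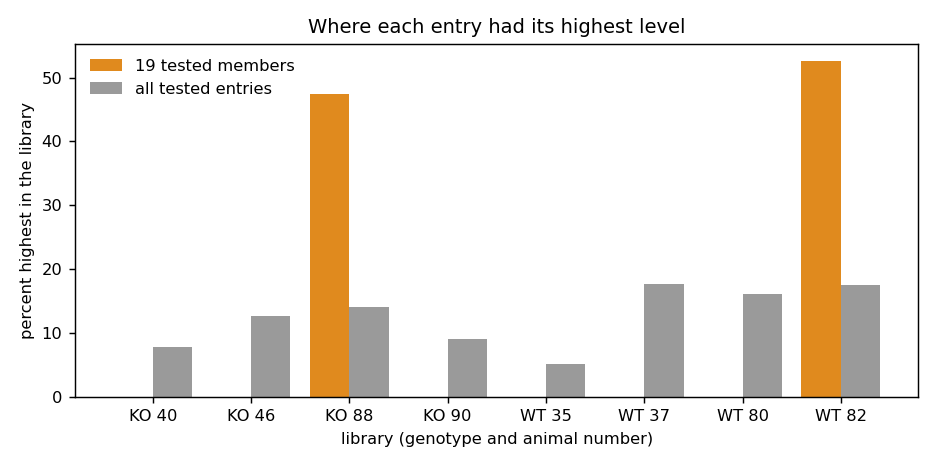
Percent of the 19 tested members and of all 627 tested entries that had their highest level in each library (y axis, percent; x axis, library, KO left of WT). All members fall in KO 88 and WT 82, where the entries as a whole are at 14.0% and 17.5%.

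The miRNAs antisense to Rtl1 were highest in WT 82. In what follows, levels are given for KO 40, 46, 88 and 90 in that order and then for WT 35, 37, 80 and 82. The most abundant, miR-127-3p, which directs cleavage of the Rtl1 transcript, stood at 360.2, 521, 253 and 101 CPM in KO, against 363, 509, 156 and 721 CPM in WT. Of the 19 tested members it was the one whose log2 level in KO 88 was under its mean log2 level over the libraries. It was lower in KO 88 than in KO 40 and KO 46. Its KO minus WT log2 difference was -0.50 ± 0.57 (SE, adjusted p = 0.997).

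miR-136-3p, from another hairpin complementary to Rtl1, stood at 30.4, 27.5, 79.3 and 14.5 CPM in KO, against 39.0, 37.4, 32.5 and 167 CPM in WT. WT 82 was far above the other WT libraries, and KO 88 was the second highest of all. miR-433-3p was listed at 0 in KO 40 and KO 46 and stood at 31.2 and 5.41 CPM in KO 88 and KO 90, against 2.67, 4.48, 7.38 and 33.9 CPM in WT. KO 88 and WT 82 were close to each other for miR-433-3p and far above the remaining libraries. The KO minus WT differences of both miRNAs, -0.86 ± 0.70 for miR-136-3p and -0.41 ± 1.52 for miR-433-3p (log2, SE), did not pass the test.

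The arms of miR-434 did not pass the filter and were chosen for mention after their values were seen. miR-434-3p stood at 1.81, 4.06, 0 and 0 CPM in KO, against 0, 0, 33.7 and 229.8 CPM in WT. miR-434-5p stood at 1.81, 3.16, 0 and 1.27 CPM in KO, against 0, 0, 4.18 and 49.8 CPM in WT. Both arms were thus high in WT 82, next highest in WT 80, and listed at 0 in KO 88, the library where most array members were high. miR-127-5p reached 8.89 CPM in WT 82 and at most 2.44 CPM elsewhere. miR-493-5p, the outermost member of that side, was highest in KO 88 instead, at 5.12, 0, 24.7 and 6.20 CPM in KO, against 1.91, 0, 2.21 and 0 CPM in WT. All 3 tested members of the Rtl1 side were highest in WT 82, and without miR-127-3p the members of that side summed to 40.6, 34.8, 135 and 29.3 CPM in KO, against 43.5, 44.4, 80.7 and 489 CPM in WT.

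Some markers of neural cells moved with the members in WT 82. The neural list (miR-9, miR-218 and miR-219a, with 5 entries; miR-124 was not analysed here) summed to 20.5, 19.0, 13.0 and 14.9 CPM in KO, against 26.2, 40.1, 110.3 and 801 CPM in WT. miR-9-5p, a regulator of neural progenitors, stood at 1.20, 0.903, 1.71 and 1.48 CPM in KO, against 0, 0, 64.6 and 509.9 CPM in WT. miR-218-5p, abundant in motor neurons, was listed at 0 in 3 KO libraries and stood at 0.803 CPM in KO 88, against 0, 1.42, 11.6 and 114 CPM in WT. miR-219a-5p, enriched in oligodendrocytes, did not share this order: it stood at 16.4, 14.9, 6.26 and 10.7 CPM in KO, against 26.2, 36.6, 11.3 and 11.4 CPM in WT. WT 82 and WT 80, the libraries with the highest miR-9 and miR-218, were also the 2 highest for both arms of miR-434. The part of neural RNA in the members' levels was not tested. In KO 88 the neural list was at its lowest of the 8 libraries, 13.0 CPM, while the members' sum was at its highest. That low sum followed miR-219a-5p, which was lowest in KO 88. By contrast, miR-9-5p, miR-9-3p and miR-218-5p, at 1.71, 4.18 and 0.803 CPM, were higher in KO 88 than in the other KO libraries, all at low levels.

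**Figure D4:**
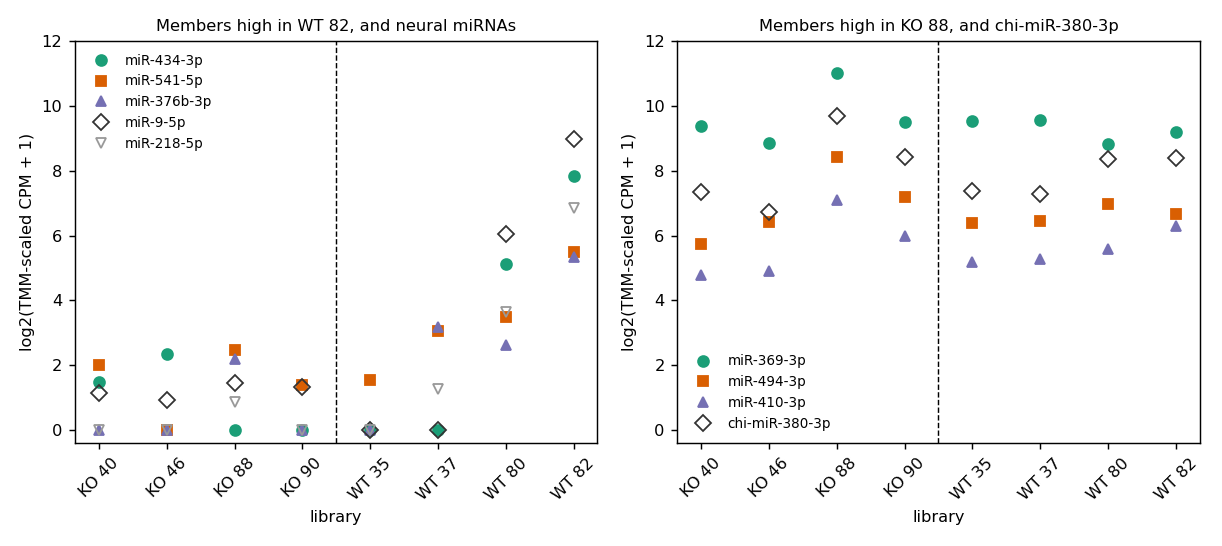
Levels across the 8 libraries (x axis, KO left of WT; y axis, log2(TMM-scaled CPM + 1)) of 3 members high in WT 82 beside miR-9-5p and miR-218-5p, and of 3 members high in KO 88 beside the entry named for goat miR-380-3p; filled symbols are members and open symbols are other entries. miR-434-3p and miR-9-5p peak together in WT 82, at 229.8 and 509.9 CPM, while miR-369-3p and miR-494-3p peak in KO 88, at 2080.5 and 342 CPM.

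The array divided between the 2 libraries: of its 16 tested members, 9 were highest in KO 88 and 7 in WT 82. The most abundant of all, miR-369-3p, which has been linked to translation of TNF mRNA in quiescent human cells, stood at 667, 464, 2080.5 and 724 CPM in KO, against 744, 766, 452 and 589 CPM in WT. KO 88 was far above the other 7 libraries, and WT 82 lay within their range. miR-494-3p stood at 52.7, 85.3, 342 and 145 CPM in KO, against 83.3, 87.5, 125 and 101 CPM in WT, again with KO 88 alone far above. miR-410-3p, the last of the array, stood at 26.5, 29.3, 135 and 62.7 CPM in KO, against 35.1, 37.4, 47.4 and 77.6 CPM in WT. Here WT 82 was second to KO 88.

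At lower levels, miR-495-3p stood at 4.21, 2.26, 85.1 and 28.0 CPM in KO, against 17.2, 11.4, 25.8 and 61.6 CPM in WT. miR-411-5p followed the same order of libraries at the top, with 6.62, 5.42, 43.0 and 15.4 CPM in KO, against 16.8, 4.07, 8.00 and 37.2 CPM in WT. miR-323-3p stood at 1.81, 0, 21.2 and 3.82 CPM in KO, against 0, 0, 5.41 and 17.2 CPM in WT. For these 3 miRNAs KO 88 was highest and WT 82 next, with the other libraries spread below.

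Both arms of miR-382 were highest in KO 88. miR-382-5p stood at 6.02, 8.58, 38.2 and 3.98 CPM in KO, against 1.91, 7.73, 3.44 and 13.4 CPM in WT, and miR-382-3p, in the form with the shifted seed, at 3.61, 7.67, 48.8 and 19.7 CPM in KO, against 11.1, 10.2, 6.15 and 18.2 CPM in WT. The arms of miR-409 differed from each other. miR-409-5p stood at 11.7, 11.3, 18.6 and 3.66 CPM in KO, against 13.0, 8.55, 9.23 and 42.0 CPM in WT, while miR-409-3p, also with a shifted start, stood at 12.9, 10.8, 42.4 and 18.3 CPM in KO, against 10.3, 22.0, 11.8 and 17.0 CPM in WT. One hairpin thus gave its highest 5p level in WT 82 and its highest 3p level in KO 88.

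The array members highest in WT 82 included miR-381-3p and miR-541-5p. miR-381-3p stood at 11.4, 2.26, 12.5 and 6.36 CPM in KO, against 9.93, 8.14, 11.2 and 48.4 CPM in WT, and miR-541-5p at 3.01, 0, 4.50 and 1.59 CPM in KO, against 1.91, 7.32, 10.2 and 44.0 CPM in WT. In both, KO 88 was close to the lower libraries and WT 82 stood alone. The A6G form of miR-376b-3p was listed at 0 in KO 40, 46 and 90 and at 3.53 CPM in KO 88, against 0, 8.14, 5.17 and 39.1 CPM in WT. miR-300-3p, miR-379-5p and miR-487b-3p were also highest in WT 82, at 45.7, 32.7 and 20.9 CPM, with KO 88 second for each. The untested miR-379-3p, miR-154-3p and both arms of miR-134 were at or below 6.51 CPM in every library.

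Entries named for other species but carrying miRNA numbers of the locus gave a further view of KO 88. There were 23 of these, and none matched a mouse hairpin exactly, so their source is uncertain. They summed to 222, 185, 1060.3 and 448 CPM in KO, against 237, 251, 372 and 400.0 CPM in WT, with KO 88 far above the rest. KO 88 was the highest library for 13 of the 23, WT 37 for 7 and KO 40 for 3, and none was highest in WT 82. Over all 627 tested entries these libraries were highest for 14.0%, 17.7%, 7.81% and 17.5%. The count holds pairs of entries with the same sequence and equal values. Pairs named for miR-376c-3p and miR-329 were highest in KO 88, and pairs named for miR-493 and miR-412 in WT 37. The largest was an entry named for goat miR-380-3p, at 161, 105, 823 and 343 CPM in KO, against 167, 155, 331 and 339 CPM in WT. An entry named for human miR-541-5p stood at 3.91, 11.3, 13.8 and 6.20 CPM in KO, against 4.97, 8.55, 0 and 1.65 CPM in WT; mouse miR-541-5p had its highest level in WT 82.

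Other cell type markers differed in KO 88 too. miR-150-5p, enriched in lymphocytes, stood at 146, 46.5, 517 and 238 CPM in KO, against 126, 77.7, 236 and 214 CPM in WT, and was highest in KO 88. The stellate and mesenchymal list summed to 8872, 6497, 3769 and 4256 CPM in KO, against 6335, 7189, 3863 and 3724 CPM in WT. Most of that sum was miR-143-3p. The sum was low in KO 88 and WT 82, but it was also low in KO 90 and WT 80, where the members' sum was not high. A low sum was therefore not particular to KO 88 and WT 82. Within the list miR-214-3p ran the other way, at 31.6, 18.5, 182 and 98.0 CPM in KO, against 53.1, 22.8, 79.8 and 172 CPM in WT. KO 88 and WT 82 were thus its highest libraries, as they were for the members. Its other arm, miR-214-5p, did not share this: it was lowest in KO 88, at 1.61 CPM, and stood at 6.62 CPM in WT 82. The part of lymphocyte or mesenchymal RNA in the members' levels was not tested.

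No member passed the test between Trem2 KO and WT Kupffer cells. In edgeR's quasi-likelihood test with Benjamini-Hochberg adjustment over 627 entries, 0 of the 19 tested members and 0.0% of all entries passed an adjusted p of 0.05. At an unadjusted p under 0.05 there were 2 entries, 1 of them a member; DESeq2 gave 6 entries and limma-trend 3 at that level, and 0 after adjustment. Of the 19 members, 10 were lower and 9 higher in KO, with a median log2 difference of -0.12, against -0.04 over all entries, of which 46.6% were higher in KO. No member had KO and WT levels that did not overlap, and 0.797% of all entries did.

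The member with an unadjusted p under 0.05 was miR-541-5p, with a mean of 2.27 ± 1.93 CPM in KO and 15.9 ± 19.1 CPM in WT (SD, n = 4 each). Its log2 difference was -2.78 ± 1.19 (SE), with an edgeR unadjusted p of 0.0425 and an adjusted p of 0.997, and it was -1.50 ± 1.20 without WT 82. The widest difference, -3.87 ± 1.86 for miR-376b-3p, had an adjusted p of 0.997 and was -2.31 without WT 82. Without KO 88 every KO library was listed at 0 for miR-376b-3p, and its fitted value, -8.80, then depends on the prior count. miR-381-3p (-1.25 ± 0.79) and miR-409-5p (-0.69 ± 0.73) also had negative differences, and without WT 82 these were -0.27 for miR-381-3p and 0.14 for miR-409-5p. On the other side were miR-382-5p (1.09 ± 0.92), miR-382-3p (0.81 ± 0.80), miR-494-3p (0.66 ± 0.55), miR-369-3p (0.63 ± 0.47) and miR-409-3p (0.47 ± 0.58); without KO 88 these 5 lay between -0.12 and -0.033.

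The sign of most members' genotype differences changed with the library left out. Without KO 88, 0 of 21 tested members were higher in KO, against 46.2% of all entries. Without WT 82, 16 of 20 were higher in KO, against 45.9% of all entries. With both left out, 4 of 15 were higher in KO, against 47.1% of all entries. No member passed the test in any of these fits.

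**Figure D5:**
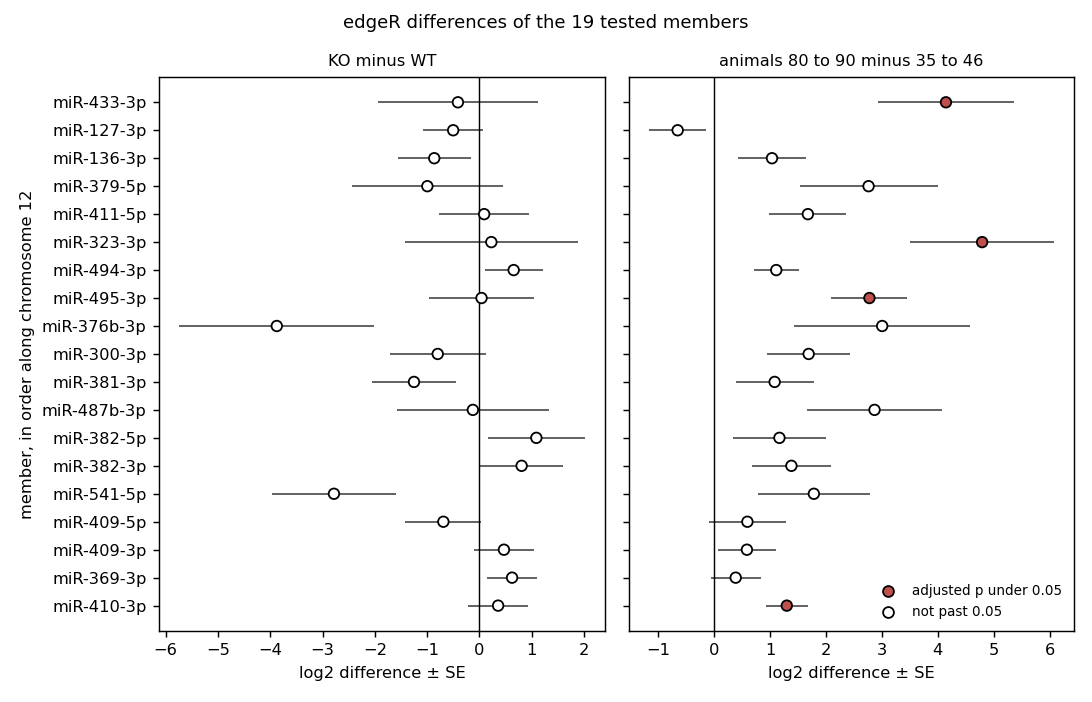
edgeR log2 differences (x axis, with SE) of the 19 tested members (y axis, in order along chromosome 12) for KO minus WT and for animals 80 to 90 minus animals 35 to 46. No member is past an adjusted p of 0.05 for genotype, and 4 are for number range, where 18 of 19 lie above 0.

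Most members were higher in the libraries with the higher animal numbers. Libraries from animals 80 to 90 (KO 88 and 90, WT 80 and 82) were set against those from animals 35 to 46 (KO 40 and 46, WT 35 and 37) in the same model with genotype as a second term. The labels do not say what separates the number ranges. Of the 19 members, 18 were higher in animals 80 to 90, with a median log2 difference of 1.38, while over all entries 48.3% were higher and the median was -0.04. The test was passed by 4 members, all higher, and by 16.6% of all entries in that direction and 15.8% in the other. In 5 members every library of animals 80 to 90 was above every library of animals 35 to 46, as in 21.4% of all entries. The counts of members that passed or did not overlap thus lay near the shares over all entries.

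The members that rose in animals 80 to 90 were miR-433-3p, miR-323-3p, miR-495-3p and miR-410-3p. miR-495-3p averaged 50.1 ± 28.5 CPM in animals 80 to 90 and 8.76 ± 6.85 CPM in animals 35 to 46 (SD, n = 4 each), and its log2 difference was 2.78 ± 0.68 (SE, adjusted p = 0.0123). miR-410-3p averaged 80.6 ± 38.2 CPM in animals 80 to 90 and 32.1 ± 5.06 CPM in animals 35 to 46, a log2 difference of 1.30 ± 0.38 (adjusted p = 0.0247). miR-433-3p averaged 19.5 ± 15.2 CPM in animals 80 to 90 and 1.79 ± 2.19 CPM in animals 35 to 46, with a fitted log2 difference of 4.15 ± 1.22 (adjusted p = 0.0268). For miR-323-3p, listed at 0 in 3 of the 4 libraries of animals 35 to 46, the averages were 11.9 ± 8.59 CPM in animals 80 to 90 and 0.451 ± 0.903 CPM in animals 35 to 46, and the fitted log2 difference was 4.79 ± 1.29 (adjusted p = 0.0188). Both fitted values depend on libraries listed at 0. miR-323-3p had 66, 24, 44 and 83 counts in KO 88, KO 90, WT 80 and WT 82, and at most 6 in any other library. It thus passed the low-count filter only through the libraries where it was high, and its call is not separate from that filter. miR-494-3p did not overlap between the ranges, with 101 to 342 CPM in animals 80 to 90 and 52.7 to 87.5 CPM in animals 35 to 46, and missed the threshold (1.11 ± 0.40, adjusted p = 0.0572).

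miR-127-3p was the only tested member that was lower in animals 80 to 90 (308 ± 282 CPM, against 438 ± 88.5 CPM in animals 35 to 46; log2 difference -0.65 ± 0.51, adjusted p = 0.352). Without WT 82 it was -1.37 and passed the test (adjusted p = 0.0207; 0.00434 to 0.702 over the alternatives). The remaining members, among them miR-369-3p (0.39 ± 0.45) and miR-409-3p (0.59 ± 0.52), did not pass the test. These results rested in part on KO 88 and WT 82, both in the higher range. With both left out, 15 members were tested and 10 were higher, where 46.3% of 592 entries were higher and 19.6% were called higher. The median log2 difference in that fit was 0.27 over the members and -0.16 over all entries. In that fit miR-495-3p (2.09) and miR-494-3p (0.91) passed upward, miR-127-3p passed downward (-1.68), miR-433-3p and miR-410-3p did not pass, and miR-323-3p was not tested. With 1 library left out, the number of members called higher was 1 without KO 40 (13.1% of all entries were called higher), 0 without KO 46 (10.7%), 2 without KO 88 (12.8%), 7 without WT 80 (18.3%) and 3 to 5 without each of the other 4 (10.4 to 15.3%). Without WT 82 there were 3 higher, and miR-127-3p was lower. Several marker lists did not overlap between the number ranges. The macrophage list summed to 222744 to 382318 CPM in animals 80 to 90 and 409786 to 539984 CPM in animals 35 to 46, and the lymphocyte list to 215 to 520.3 CPM in animals 80 to 90 and 46.5 to 147 CPM in animals 35 to 46. The stellate and mesenchymal list summed to 3724 to 4256 CPM in animals 80 to 90 and 6335 to 8872 CPM in animals 35 to 46, and the erythroid list to 644 to 2513 CPM in animals 80 to 90 and 5056 to 7381 CPM in animals 35 to 46. Most of the macrophage sum was miR-21a-5p, at 144349 to 250264 CPM in animals 80 to 90 and 284448 to 435942 CPM in animals 35 to 46. Single entries went against the macrophage and stellate sums, and the erythroid miR-144-3p went against its sum in KO 88 alone. In the macrophage list, miR-142a-5p stood at 21060 to 30235 CPM in animals 80 to 90 and 11664 to 16794 CPM in animals 35 to 46. For miR-223-3p these ranges were 4946 to 7497 CPM and 2598 to 3572 CPM, and for miR-511-5p they were 76.3 to 109 CPM and 33.8 to 63.7 CPM. The other arms of miR-142a and miR-511 were lower in animals 80 to 90, as the sum was. miR-511-3p stood at 422 to 564 CPM against 653 to 920 CPM. miR-142a-3p, with overlap, stood at 1401 to 2236 CPM against 2001 to 3258 CPM. miR-214-3p stood at 79.8 to 182 CPM in animals 80 to 90 and 18.5 to 53.1 CPM in animals 35 to 46. Its other arm, miR-214-5p, went with the stellate sum, at 1.61 to 6.62 CPM and 7.22 to 12.6 CPM. The erythroid miR-144-3p was highest in KO 88, at 549 CPM, against 185 to 273 CPM in animals 35 to 46. In KO 90, WT 80 and WT 82 it went with the erythroid sum, at 179.5, 56.8 and 74.9 CPM. Their part in the members' difference was not tested.

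Other mouse miRNAs of the locus outside the 36 stems were few. Of a further list of stems from the locus, miR-485, miR-496a and miR-758 had entries, none of which passed the filter, and each was at or below 5.79 CPM. An entry named miR-299b-3p, added because its sequence lies in the Mir299a hairpin of RefSeq, passed it and stood at 10.8, 0, 9.31 and 7.95 CPM in KO, against 10.3, 8.55, 3.81 and 5.38 CPM in WT. Its level in KO 88 and WT 82 lay within the range of the other libraries. The ratio of arms could be read for few hairpins: averaged over the libraries, the 3p arm of miR-127 was at 373 CPM and its 5p arm at 1.94 CPM, and for miR-379 the 5p arm was the higher, at 7.98 CPM against 2.05 CPM for the 3p arm.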

How the data were processed

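The members, lists and comparisons were chosen with earlier results of these data known. The deposited raw columns hold expected counts per entry, per the file headers, and 12.0% of the values are not whole within 1e-06; the deposited normalized columns hold a signal equal to the raw value times 1 factor per library. The aligner, the miRNA database and the build were not given in the sources used here.

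Expected counts were rounded, filtered with filterByExpr, scaled by TMM and tested with edgeR 4.0.16 (quasi-likelihood, genotype as the only term, or number range and genotype) over 627 entries, with Benjamini-Hochberg adjustment at 0.05. The script was tested on simulated counts. Standard errors were derived from the F statistic. Levels are TMM-scaled CPM of the expected counts, with the SD over 4 libraries. Sequences and positions were matched to RefSeq (GRCm38.p6) by name and exact search; 26 of 27 names matched. DESeq2 1.42.0 and limma 3.58.1 were alternatives.

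Values per library are given for the 10 most abundant members, the 5 with the smallest p in each direction of each comparison, and their tested other arms; other members named are said to be chosen after their values were seen or are given by their highest value.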

Additional observations from a re-analysis of the deposited data

Results flagged for a closer look

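Within the genotype groups of 4, 40 sets of levels were examined (19 tested members and the summed level, in each genotype). In 9 of them the highest library stood apart from the other 3 by Dixon's criterion. Chance gives about 2 if the sets are independent. These sets share their libraries, and the summed level is made of the members, so the count of 9 cannot be judged against that figure. All 9 were in KO 88 or WT 82. In KO 88 these were miR-369-3p at 2080.5 CPM, where the other KO libraries reached at most 724 CPM, miR-382-5p at 38.2 CPM against at most 8.58 CPM, miR-376b-3p at 3.53 CPM where the other 3 were listed at 0 (any value above 0 then meets the criterion, so this one carries no weight), and the summed level of the members at 3326 CPM against at most 1224 CPM. In WT 82 these were miR-433-3p at 33.9 CPM, where the other WT libraries reached at most 7.38 CPM, miR-136-3p at 167 CPM against at most 39.0 CPM, miR-300-3p at 45.7 CPM against at most 9.36 CPM, miR-381-3p at 48.4 CPM against at most 11.2 CPM, and miR-409-5p at 42.0 CPM against at most 13.0 CPM.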

How the results depend on the processing

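No paired analysis was possible because KO and WT libraries share no replicate number; with the animal number range as a block, 0 members were called between KO and WT. That count was 0 under every alternative run (2 further scalings, 2 further filters, DESeq2, limma-trend, mouse-named entries, merged sequences, each number range alone and each library left out). With each library left out in turn, the KO minus WT log2 differences ranged from -1.50 to 0.059 for miR-136-3p, -1.02 to 0.14 for miR-409-5p, -0.061 to 0.94 for miR-494-3p, -0.089 to 1.70 for miR-382-5p, -0.12 to 1.17 for miR-382-3p, -0.10 to 0.71 for miR-409-3p and -0.033 to 0.84 for miR-369-3p; the sign turned without WT 82 for miR-136-3p and miR-409-5p and without KO 88 for the other 5. miR-381-3p ranged from -1.52 to -0.27. Among animals 35 to 46 alone the difference was -0.26 for miR-494-3p, -0.87 for miR-382-3p, 0.15 for miR-409-5p, -0.38 for miR-409-3p and -0.36 for miR-369-3p. With WT 82 and KO 88 both left out, a choice made after seeing the data, it was -0.039 for miR-494-3p and -0.033 for miR-369-3p. Without its most abundant member, miR-369-3p, the summed level had a log2 ratio of KO to WT of -0.33. For animals 80 to 90 against 35 to 46, 4 members were called; DESeq2 called 9, against 24.9% of all entries in the upward direction, and the test without a filter called 9 of 27, against 10.5% of 1234 entries. Leaving out 1 library gave 0 to 7, against 10.4 to 18.3% of all entries in the upward direction. Beyond fewer samples, the cause of these changes was not tested. Over all alternatives the adjusted p for the number range was 9.85e-06 to 0.0572 for miR-495-3p, 0.00230 to 0.0939 for miR-410-3p, 4.25e-05 to 0.0919 for miR-433-3p, 0.000250 to 0.0807 for miR-323-3p, 0.00776 to 0.164 for miR-494-3p and 0.00434 to 0.702 for miR-127-3p. KO 88 and WT 82 held the highest level of 9 and 10 members under each scaling, and of 10 and 10 of 20 with the filter of 10 counts in 4 libraries. Keeping 1 entry per mature arm changed nothing, since each arm had 1 entry. Depth limits the low members: 45 of the 216 member values were 0.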

Other observations

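Apart from the members, 436 entries had a mean of at least 10 CPM, and their positions in the genome were not looked up. Those whose log2 level was most like that of the members' sum over the 8 libraries were a predicted small RNA named PC-5p-33072_209 (Pearson r = 0.823), a variant of miR-5124a (0.812), 2 entries named for miR-6529 of other species with the same values (0.807 each) and a predicted small RNA named PC-3p-12295_615 (0.798). These are descriptions over 8 libraries that share their depth and scaling. PC-3p-12295_615 stood at 7.22, 6.32, 131 and 14.3 CPM in KO 40, 46, 88 and 90, against 5.35, 3.66, 2.46 and 11.0 CPM in WT 35, 37, 80 and 82, so KO 88 was far above the rest and WT 82 was not.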
